A study of Mus musculus with 3 samples.

Results

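Platelet-derived growth factor (PDGF) and KIT signalling was followed through 8 genes, namely the receptor genes Pdgfra, Pdgfrb and Kit and the ligand genes Pdgfa, Pdgfb, Pdgfc, Pdgfd and Kitl. They were chosen by name, as the receptors of these families with their ligands, from the 32285 genes listed in every library. All 8 had at least 131 unique molecular identifiers (UMIs, each standing for 1 captured transcript molecule) in vehicle smooth muscle cells.

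PDGF receptors and KIT are receptor tyrosine kinases of the same class, which pair on binding a dimeric ligand and then phosphorylate each other. PDGF-A and PDGF-C dimers act on PDGFR-alpha, PDGF-D acts mainly on PDGFR-beta, and PDGF-B binds both receptors. In vessels, endothelial PDGF-B recruits smooth muscle cells and pericytes through PDGFR-beta, while stem cell factor (the product of Kitl) keeps alive the mast cells, melanocytes and blood progenitors that carry KIT. Sunitinib inhibits the kinase activity of both PDGF receptors and of KIT, and transcripts, which were measured here, do not report that activity.

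Single cells were digested from arteries of wild-type mice and their transcript ends sequenced, in 3 libraries with 1 per group. The library titles say vascular tissues and 3 weeks, and do not name the vessel. The mice had been given vehicle, sunitinib, or sunitinib with Yoda1, a small-molecule agonist of the stretch-gated channel PIEZO1. The label of the second library says only TKI (tyrosine kinase inhibitor) and that of the third only Yoda1, so both were placed through the series design. With 1 library per group no difference between groups has a replicate check, the labels do not say how many animals a library holds, and every interval below is a 95% interval that covers counting error only.

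The libraries held 28364203 to 73901343 UMIs, and 3130 to 4148 cells per library were kept that had at least 500 UMIs, at least 300 genes and at most 15% mitochondrial UMIs. The library given both compounds stood apart from the other two. Its file header names Cell Ranger 7.1.0 against 6.0.0 in the others, its kept cells had a median of 5452 UMIs against 16561 (vehicle) and 15903 (sunitinib), and smooth muscle cells made up 2.17% of them against 83.2% and 83.7%. B cells made up 25.1% and T cells 18.8% of its cells, and it alone held many UMIs of the airway gene Scgb1a1 (17879 against 1 and 0). Markers of red blood cells summed to 11421 CPM (UMIs of a gene per total UMIs of the summed cells, scaled as counts per 1e6) in its smooth muscle cells, against 79.8 CPM in vehicle and 1.28 CPM in sunitinib. Between 3 and 7 kept barcodes per library also occurred in another library.

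Cells were assigned by raw UMIs of a few genes. A smooth muscle cell had at least 3 UMIs each of Myh11 and Acta2, an endothelial cell at least 3 of Pecam1 and Cdh5 together, and a fibroblast at least 3 of Dcn, each with low counts of the other types' genes. These gates held 3284, 3473 and 68 smooth muscle cells in the vehicle, sunitinib and combined libraries, 115, 170 and 692 endothelial cells, and 5, 8 and 204 fibroblasts. No doublet caller was run, and 279, 159 and 27 cells that met the rules of more than 1 type at once were left out. In the combined library only 46.7% of cells in the endothelial gate held 3 or more UMIs of further endothelial markers, and 34.0% held 3 or more of B cell markers. A stricter endothelial gate, added after this was seen, also asked for a Cdh5 UMI and no UMI of the leukocyte gene Ptprc. It held 103, 141 and 309 cells, of which 97.1%, 97.9% and 98.4% carried 3 or more endothelial marker UMIs, and it is used for endothelial values of the combined library unless the wider gate is named.

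Coordinates are those of GENCODE vM21 on GRCm38. Pdgfra (ENSMUSG00000029231, chromosome 5, 75152292 to 75198215, plus strand) and Kit (ENSMUSG00000005672, chromosome 5, 75574916 to 75656722, plus strand) lie near each other. Pdgfa (ENSMUSG00000025856) lies further along chromosome 5 at 138976014 to 138997370 on the minus strand, and Pdgfrb has the identifier ENSMUSG00000024620. Pdgfb (ENSMUSG00000000489) lies on chromosome 15 at 79995874 to 80014977 on the minus strand. Pdgfc (ENSMUSG00000028019, chromosome 3, 81036416 to 81214040), Pdgfd (ENSMUSG00000032006, chromosome 9, 6168584 to 6378850) and Kitl (ENSMUSG00000019966, chromosome 10, 100015630 to 100100416) are on plus strands. Values count UMIs over the whole gene, whichever exon or untranslated region a read came from. Pdgfra, Pdgfa, Pdgfb, Pdgfc and Pdgfd overlap an annotated gene on the other strand, and the sources used here do not give whether strand was used in counting.

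Pdgfra, Pdgfc and Pdgfd stood higher in a treated library in the smooth muscle comparisons below, and their upstream windows lie outside their own annotated genes. The 250 bases before their RefSeq starts (GRCm38.p6, plus strand) are shown. Overlap of these windows with other annotated genes was not examined. Pdgfrb and Pdgfb also stood higher with both compounds, but their upstream sequence was not searched. RefSeq promoters of the 6 genes other than Pdgfb and Pdgfrb were used. The windows are chr5:75152001-75152250 for Pdgfra, chr3:81036166-81036415 for Pdgfc and chr9:6168236-6168485 for Pdgfd, and capitals mark a TATA box (TATAAA, searched on both strands).
Pdgfra: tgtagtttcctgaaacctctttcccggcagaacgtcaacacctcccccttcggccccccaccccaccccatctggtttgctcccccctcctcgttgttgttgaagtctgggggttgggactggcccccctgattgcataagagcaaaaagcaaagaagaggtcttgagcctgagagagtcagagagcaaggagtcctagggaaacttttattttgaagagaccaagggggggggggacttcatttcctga
Pdgfc: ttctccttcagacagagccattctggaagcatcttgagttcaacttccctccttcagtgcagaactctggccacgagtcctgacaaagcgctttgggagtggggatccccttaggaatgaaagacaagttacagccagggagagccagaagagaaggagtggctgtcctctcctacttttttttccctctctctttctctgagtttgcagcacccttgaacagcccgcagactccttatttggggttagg
Pdgfd: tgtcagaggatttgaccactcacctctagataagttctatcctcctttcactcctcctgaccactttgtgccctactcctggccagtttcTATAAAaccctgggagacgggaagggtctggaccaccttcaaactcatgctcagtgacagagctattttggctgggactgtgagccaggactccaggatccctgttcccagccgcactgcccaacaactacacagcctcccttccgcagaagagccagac
Of these windows, that of Pdgfd alone held TATAAA, a motif present in 12.4% of 32851 promoter windows of the same length. The GC box GGGCGG, present in 32.7% of windows, occurred in none of the 3, nor did the AP-1 motif TGANTCA (6.75% of windows) or the EGR motif GCGNGGGCG (4.70%). Among the remaining genes used, Kitl held 1 TATAAA and 3 GGGCGG, and the windows of Pdgfa and Kit held GGGCGG only. These are matches of letters in a window and say nothing of binding. GC content was 54.4% for Pdgfra, 50.8% for Pdgfc and 53.6% for Pdgfd.

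**Figure D1:**
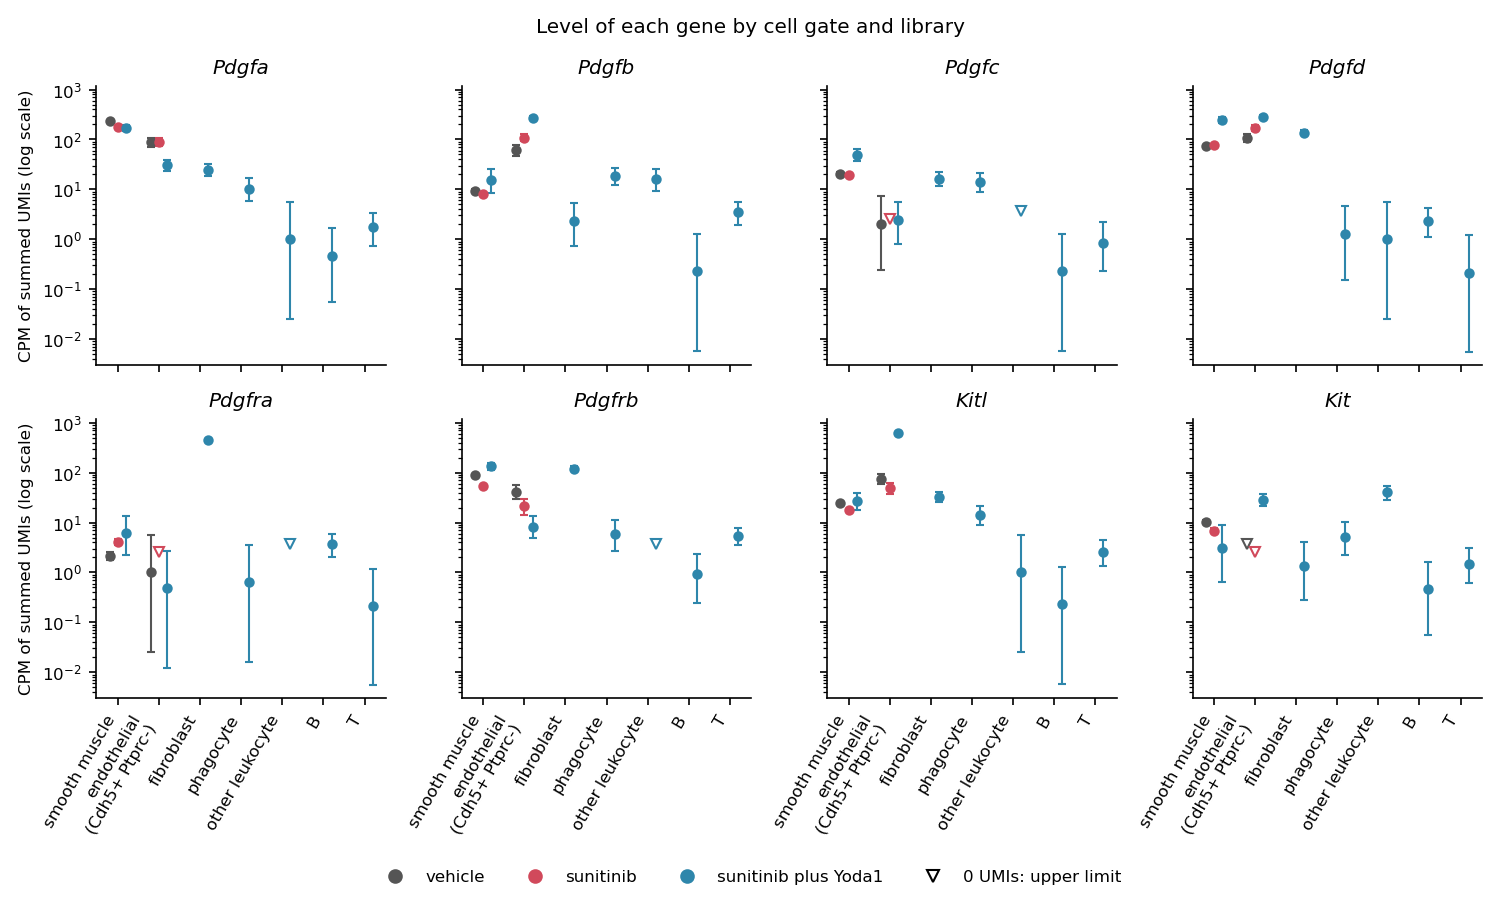
CPM of summed UMIs (log scale) of each of the 8 genes by cell gate, coloured by library, with bars for the exact Poisson interval and open triangles for the upper end of that interval where no UMI was found. Pdgfra was highest in fibroblasts (442 CPM), and Pdgfb and Kitl stood higher in endothelial cells than in smooth muscle in all 3 libraries; gates under 50 cells are not drawn.

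The ligand genes divided the vessel wall between them. Pdgfa and Pdgfc stood higher in smooth muscle and Pdgfb and Kitl higher in endothelium, in each of the 3 libraries. Levels are given as CPM of the UMIs summed over the cells of a gate, and are compared between cell types for 1 gene at a time. For shares of cells with a UMI in the combined library, the same share in its B cells is taken as the background. For each of the 8 genes, between 0.127% and 0.635% of these 787 cells held a UMI (median 4680 UMIs per cell). The vehicle and sunitinib libraries held 1 and 0 B cells, so their shares have no such background.

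Pdgfa encodes the A chain, a mitogen for cells with PDGFR-alpha. In smooth muscle it stood at 229.6 CPM in vehicle (92.2% of cells with a UMI), 179.7 CPM in sunitinib (84.5%) and 169.6 CPM in the combined library (73.5%). Endothelial cells of the stricter gate had 87.1, 90.1 and 30.2 CPM. The endothelial to smooth muscle log2 ratio was thus -1.40 (-1.72 to -1.09) in vehicle, -0.995 (-1.26 to -0.74) in sunitinib and -2.49 (-2.94 to -2.06) in the combined library, so smooth muscle was the higher source each time. Fibroblasts of the combined library had 25.01 CPM.

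Pdgfb, the B chain through which endothelium recruits mural cells, had the opposite order. Smooth muscle held 9.47, 8.10 and 15.4 CPM in vehicle, sunitinib and the combined library, and endothelial cells held 61.0, 108 and 275 CPM. Endothelium was 6.45-fold higher in vehicle (log2 ratio 2.69, 2.28 to 3.07), 13.3-fold in sunitinib (3.73, 3.46 to 4.0) and 17.8-fold in the combined library (4.16, 3.42 to 5.0). Smooth muscle cells, far more numerous, held 76.3% of all Pdgfb UMIs in vehicle and 66.7% in sunitinib. In fibroblasts of the combined library all 5 UMIs sat in 1 cell. Phagocytes there had 18.7 CPM (12.5 to 26.8) with a UMI in 11.7% of 128 cells, and the 5 phagocytes of the vehicle library held 12 UMIs, enough for 206 CPM (107 to 360).

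Pdgfc and Pdgfd encode ligands that are secreted in a latent form and released by proteases. Pdgfc stood at 20.8, 19.3 and 49.3 CPM in smooth muscle and was nearly missing from endothelium, with 2, 0 and 5 UMIs in the stricter gate. Endothelial cells were 10.4-fold lower in vehicle (log2 ratio -3.38, -6.42 to -1.52, on 2 UMIs) and 20.3-fold lower in the combined library. In sunitinib they were 9.12-fold lower with the 0 set to 3 counts, and the log2 interval reached up to -2.89. Pdgfd, by contrast, was shared by all 3 cell types. It stood at 74.6, 77.5 and 247 CPM in smooth muscle, 109, 171 and 286 CPM in endothelium and 137 CPM in fibroblasts of the combined library. Endothelial cells exceeded smooth muscle by 0.55 (0.26 to 0.82) on the log2 scale in vehicle and by 1.14 (0.95 to 1.33) in sunitinib, and the combined library gave 0.21 (-0.01 to 0.44), an interval that includes 0.

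Kitl encodes stem cell factor, the only known ligand of KIT. Smooth muscle had 25.04, 17.5 and 26.7 CPM, while endothelium had 75.1, 48.6 and 622 CPM. The endothelial excess was 3.0-fold in vehicle (log2 ratio 1.58, 1.23 to 1.92), 2.78-fold in sunitinib (1.47, 1.10 to 1.83) and 23.3-fold in the combined library (4.54, 3.98 to 5.16). In that library 79.9% of endothelial cells held a UMI, against 1 of 787 B cells (0.127%) and 1.19% of T cells, at median depths of 4909, 4680 and 7429 UMIs.

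The receptor genes marked the receiving cells. Pdgfra belonged to fibroblasts and Pdgfrb to smooth muscle and fibroblasts, while Kit was low in the wall and spread over unlike cells. Pdgfra stood at 2.17, 4.09 and 6.17 CPM in smooth muscle (131, 234 and 6 UMIs), with at most 1 UMI in endothelium of the stricter gate in any library. Fibroblasts of the combined library had 442 CPM (415 to 471) with a UMI in 152 of 204 cells (74.5%, or 51.4% after each cell was thinned to 2000 UMIs). They held 973 of the 1090 Pdgfra UMIs of that library, and were 71.7-fold above smooth muscle (log2 ratio 6.16, 5.04 to 7.61). The few fibroblasts of the other libraries also carried it, with 10 UMIs in 4 of 5 vehicle cells and 8 UMIs in 5 of 8 sunitinib cells. In B cells 15 of 16 Pdgfra UMIs came from 1 cell.

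Pdgfrb, the receptor of mural cells, stood at 88.2, 54.0 and 134 CPM in smooth muscle, with a UMI in 66.9%, 51.3% and 80.9% of cells. Fibroblasts of the combined library did not differ from its smooth muscle beyond counting error (120 CPM, log2 ratio -0.16, -0.47 to 0.15). Endothelial cells had 41.0, 21.1 and 8.28 CPM, or 2.15-fold, 2.56-fold and 16.1-fold less than smooth muscle. Smooth muscle markers summed to 352, 965 and 182 CPM in these endothelial cells, and the part of smooth muscle RNA in the Pdgfrb values was not tested. Within smooth muscle, carrying a Pdgfrb UMI went with carrying Pdgfa in whole cells (94.8% against 87.0% in vehicle), but Pdgfrb-positive cells were also deeper (median 17751 against 14697 UMIs). At 2000 UMIs per cell they were 32.3% against 34.6% for vehicle, and the order was opposite for sunitinib (33.7% against 28.5%). Among fibroblasts of the combined library, Pdgfrb was found in 67.1% of Pdgfra-positive and 23.1% of Pdgfra-negative cells, and in 20.4% and 21.6% after thinning.

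Kit was found in smooth muscle of the vehicle library at 10.2 CPM (402 of 3284 cells, 12.2%) and of the sunitinib library at 6.91 CPM (277 of 3473, 7.98%). No endothelial cell of those libraries held a UMI. A count of 0 allows a share of cells with a UMI of up to 2.61% of the 115 vehicle and 1.76% of the 170 sunitinib cells in the wider gate, which does not limit the share that expresses the gene, at median depths of 7520 and 6626 UMIs against 16590 and 16183 in smooth muscle. In the stricter gate, with the 0 set to 3 counts, endothelium was 3.39-fold lower in vehicle and 3.27-fold lower in sunitinib. The log2 intervals reached up to -1.46 and -1.41. In the combined library the order turned, with 3 UMIs in smooth muscle (3.08 CPM, 0.64 to 9.01) and 59 UMIs in 19 of 309 endothelial cells (28.7 CPM, 21.9 to 37.1). Among these 19 cells all carried 2 or more endothelial markers and none carried 2 or more B cell, T cell or mast cell markers.

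The comparison of sunitinib with vehicle asks how transcripts of the drug's own targets and of their ligands stood after treatment. In smooth muscle Pdgfrb was lower and Pdgfra, at far fewer UMIs, higher, while Kit, Kitl and Pdgfa were lower by less than 1.5-fold. In the endothelium Pdgfb and Pdgfd stood higher and Pdgfrb and Kitl lower. A gene was counted as past the fold where the ratio of CPM was at least 1.5-fold and its interval excluded 0 on the log2 scale.

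**Figure D2:**
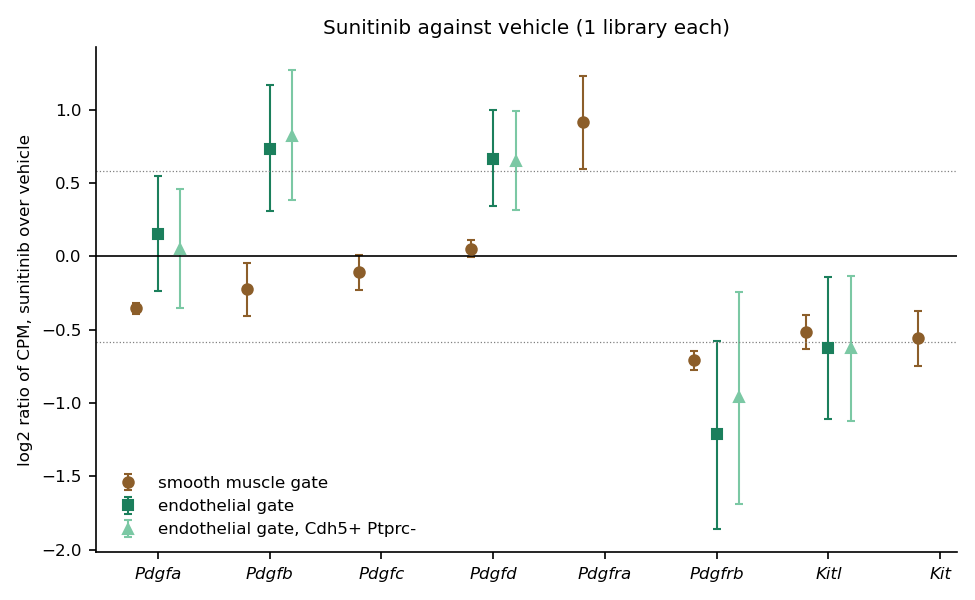
Log2 ratio of CPM, sunitinib over vehicle, for each gene in the smooth muscle gate, the endothelial gate and its stricter form, with bars for the exact interval of a ratio of 2 counts and dotted lines at 1.5-fold. Pdgfrb lies below 0 in all 3 gates and Pdgfd above 0 in both endothelial ones, whereas Pdgfb lies above 0 in endothelium and just below it in smooth muscle; genes under 20 UMIs are not drawn.

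Smooth muscle cells gave the most precise values. Of the 8 genes, 1 was past 1.5-fold lower and 1 higher, against a background of 3.45% lower, 5.66% higher and 9.12% in either direction among 13789 genes. The median log2 ratio of the 8 was -0.29, beside 0.09 over all genes. Pdgfrb stood at 88.2 CPM in vehicle and 54.0 CPM in sunitinib (5320 and 3086 UMIs), a log2 ratio of -0.71 (-0.77 to -0.64), and was past 1.5-fold in all 14 alternative settings (-0.85 to -0.65). Pdgfra stood at 2.17 and 4.09 CPM (0.91, 0.60 to 1.23), with a UMI in 3.84% and 5.90% of cells. Kit had a ratio of -0.56 (-0.74 to -0.37) and Kitl, 1510 UMIs against 1000, one of -0.52 (-0.63 to -0.40). The receptor and ligand of the KIT pair thus both lay below 0 with intervals that excluded it, and just inside the 1.5-fold line. With normalization by TMM or by the median of ratios, which shifted every value by -0.09 or -0.08, both passed it.

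Pdgfa was the most abundant of the 8 by UMIs and its ratio had the narrowest interval, -0.35 (-0.39 to -0.32; 13847 and 10270 UMIs). Pdgfb stood at -0.22 (-0.40 to -0.05). The latent ligands lay closest to 0, with Pdgfc at -0.11 (-0.23 to 0.01) and Pdgfd at 0.05 (-0.01 to 0.11). Neither differed detectably between the libraries, and Pdgfd turned to -0.035 under TMM scaling and to -0.024 under the median of ratios.

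In endothelial cells 5 of the 8 genes reached 20 UMIs, and 2 were past 1.5-fold lower and 2 higher, against a background of 2.85% lower, 5.88% higher and 8.73% in either direction among 8453 genes. Pdgfb stood at 62.2 CPM in vehicle and 103 CPM in sunitinib (66 and 156 UMIs; log2 ratio 0.73, 0.31 to 1.17). A single sunitinib cell held 18 of the 156 UMIs. Pdgfd stood at 107 and 169 CPM (0.67, 0.34 to 0.999). Both ligands of mural cells were thus higher in the sunitinib library, by a like factor. Pdgfrb was lower, 53.8 against 23.2 CPM (-1.21, -1.86 to -0.58), and Kitl was lower, 72.6 against 47.1 CPM (-0.63, -1.11 to -0.14). Pdgfa did not differ detectably (0.15, -0.23 to 0.55).

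In the stricter gate the ratios were 0.82 (0.38 to 1.27) for Pdgfb, 0.65 (0.32 to 0.99) for Pdgfd, -0.96 for Pdgfrb and -0.63 for Kitl, with 2 genes lower and 2 higher against a background of 2.66%, 6.14% and 8.79% in either direction. In the 82 vehicle and 98 sunitinib cells whose arterial markers outnumbered venous, capillary and lymphatic ones, Pdgfb stood at 61.8 and 111 CPM (0.85, 0.38 to 1.34) and Pdgfd at 105 and 171 CPM (0.70, 0.33 to 1.07). Pdgfrb was again lower there (-0.97, -1.75 to -0.21), but Kitl was no longer past the fold (-0.44, -0.98 to 0.09). With each cell thinned to 2000 UMIs none of the 5 genes passed the fold, and every interval included 0. Pdgfb then stood at -0.024 (-1.05 to 1.04), while Pdgfd (0.87, -0.02 to 1.83), Kitl (-0.95, -2.06 to 0.12) and Pdgfrb (-1.09, -2.59 to 0.32) had ratios of the same sign as before. In cells with no UMI of the other gates' genes Pdgfd and Kitl passed it and Pdgfb (0.46, -0.20 to 1.14) and Pdgfrb (-0.55, -1.68 to 0.56) did not. Smooth muscle markers in the endothelial gate summed to 404 CPM in vehicle and 1012 CPM in sunitinib, the opposite direction to Pdgfrb. Pericyte markers there summed to 40.6 and 21.2 CPM and fibroblast markers to 724 and 653 CPM, the same direction as Pdgfrb. A single vehicle cell of that gate held 11 of its 57 Pdgfrb UMIs. The part of RNA from other cells in these Pdgfrb values was not tested.

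Kit in smooth muscle was concentrated in a subset of cells. In vehicle the genes with the largest excess in Kit-positive over Kit-negative smooth muscle cells included Rgs5, a regulator of G protein signalling abundant in mural cells, and the homeobox genes Hoxc10 and Hoxa10, which are used in the lower trunk. Hoxc10 stood at 23.5 CPM in Kit-positive and 3.62 CPM in Kit-negative vehicle cells, and at 27.6 and 3.17 CPM in the sunitinib library. Rgs5 stood at 4773 and 1482 CPM in vehicle and 5268 and 1461 CPM in sunitinib. Depth was alike in both kinds of cell (median 16744 and 16585 UMIs in vehicle). The transcription factor gene Hand2 stood lower in Kit-positive cells (2.12 against 17.0 CPM).

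**Figure D3:**
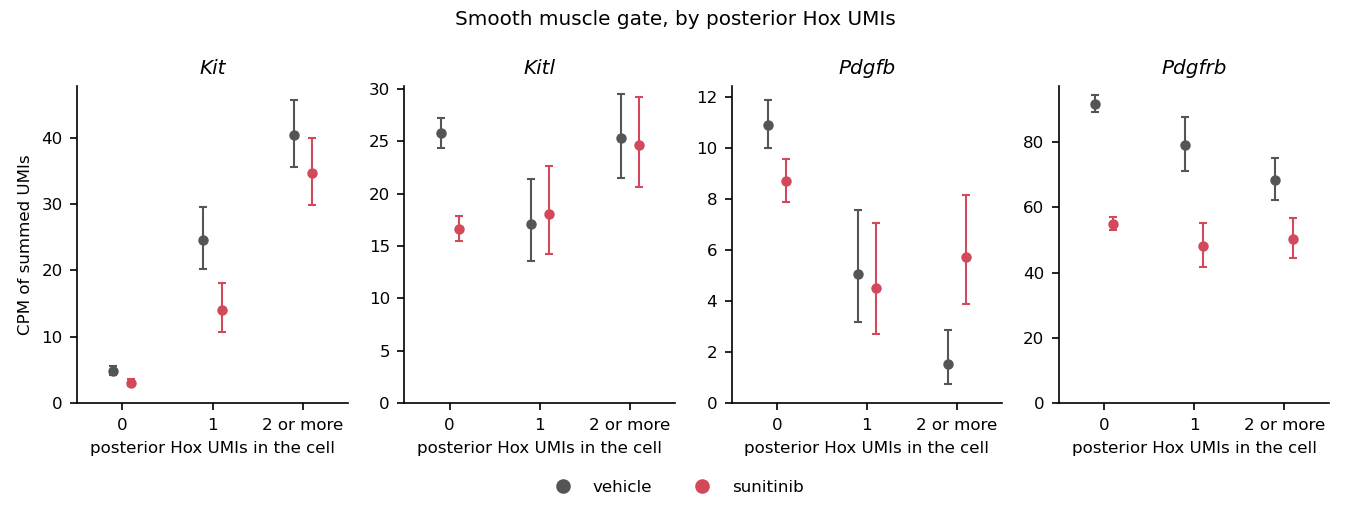
CPM of summed UMIs of Kit, Kitl, Pdgfb and Pdgfrb in smooth muscle cells with 0, 1 or at least 2 UMIs of posterior Hox genes, in the vehicle and sunitinib libraries, with exact Poisson intervals as bars. Kit stands at 4.92 CPM with no such UMI and 40.4 CPM with at least 2 in vehicle, and at 3.13 and 34.6 CPM in sunitinib, and Pdgfb runs the other way in vehicle.

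Smooth muscle cells were therefore split by their UMIs of 16 posterior Hox genes (paralog groups 9 and above), a step added after these genes were seen. At least 2 such UMIs were held by 320 vehicle cells (9.74%) and 289 sunitinib cells (8.32%), and none by 2704 and 2938. Kit stood at 40.4 CPM in vehicle cells with at least 2, 24.6 CPM with 1 and 4.92 CPM with none. In sunitinib the same classes gave 34.6, 14.0 and 3.13 CPM. The log2 ratio of the outer classes was 3.04 (2.78 to 3.29) in vehicle and 3.47 (3.15 to 3.79) in sunitinib. The classes were chosen because Hox genes set Kit-positive cells apart in these same cells. These Kit ratios therefore restate that choice and are no separate support for it. Pdgfb ran against it in vehicle, with 1.56 CPM in cells with at least 2 Hox UMIs and 10.9 CPM in cells with none (-2.81, -3.87 to -1.92), and less so in sunitinib (5.74 and 8.69 CPM, -0.60, -1.17 to -0.07). Kitl stood at 25.3 and 25.7 CPM in these classes in vehicle (-0.03, -0.27 to 0.21) and at 24.6 and 16.6 CPM in sunitinib (0.57, 0.29 to 0.83).

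Sunitinib and vehicle were then compared inside these classes, whose sizes differed little between the libraries. Pdgfrb was lower in both, by -0.44 (-0.66 to -0.22) with at least 2 Hox UMIs and by -0.74 (-0.81 to -0.67) with none. Kit gave -0.22 (-0.50 to 0.05) and -0.65 (-0.96 to -0.35), and Kitl gave -0.04 (-0.38 to 0.30) and -0.63 (-0.76 to -0.50). For both KIT genes the lower level in sunitinib was thus seen in the cells without posterior Hox UMIs. Among those with at least 2 the interval included 0. The intervals of the 2 classes overlapped for Kit and not for Kitl, and the difference between classes was not tested. Pdgfb stood at 1.88 (0.81 to 3.07, on 10 and 31 UMIs) in the first class and at -0.33 (-0.52 to -0.14) in the second.

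Other genes differed between smooth muscle cells with and without a UMI of Pdgfra, Pdgfb, Pdgfc, Pdgfrb or Kitl. Pdgfra-positive smooth muscle cells had more Sfrp2, a secreted Wnt modulator (155 against 95.7 CPM in vehicle and 79.1 against 56.4 CPM in sunitinib), and more of the collagen gene Col14a1 (64.1 against 37.7, and 49.7 against 31.0 CPM). Both genes are also used by adventitial fibroblasts. Pdgfb-positive cells had more Vcam1, a leukocyte adhesion molecule (61.8 against 9.82, and 50.4 against 15.9 CPM), and more Timp1, an inhibitor of matrix proteases (106 against 9.61, and 20.2 against 6.80 CPM). The cells with Pdgfb were deeper than those without it. Vcam1 also stood higher in Pdgfrb-positive cells (21.9 against 4.70, and 28.5 against 8.26 CPM) and Pdgfc-positive cells (35.0 against 8.82, and 34.6 against 14.2 CPM). Timp1 did so too, for Pdgfrb (28.5 against 9.64, and 10.7 against 5.28 CPM) and Pdgfc (48.3 against 11.5, and 11.4 against 7.28 CPM). Among Kitl-positive cells Vcam1 stood higher in both libraries, and Timp1 in vehicle but not in sunitinib (6.63 against 9.02 CPM). Carriers of Pdgfrb, Pdgfc and Kitl were deeper as well. Hand2, low where Kit was found, stood higher in Kitl-positive cells (22.6 against 11.4 CPM in vehicle).

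The comparison of both compounds with sunitinib alone asks what adding the PIEZO1 agonist did. It sets 68 smooth muscle cells against 3473, and it coincides with the change of Cell Ranger version and of cell make-up described above, which cannot be told apart from treatment. Pdgfd, Pdgfc, Pdgfrb and Pdgfb stood higher in smooth muscle with both compounds, and Kitl, Kit, Pdgfb and Pdgfd higher in endothelium of the stricter gate.

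In smooth muscle 4 of the 8 genes were past 1.5-fold higher and none lower, against a background of 22.0% higher, 5.88% lower and 27.9% in either direction among 13015 genes. Pdgfd stood at 77.5 CPM in sunitinib and 247 CPM in the combined library (4427 and 240 UMIs; log2 ratio 1.67, 1.48 to 1.86). Pdgfc gave 1.36 (0.91 to 1.77), Pdgfrb 1.31 (1.04 to 1.56) and Pdgfb 0.93 (0.08 to 1.67). The median log2 ratio was 0.97 for the fifth of genes with the most intron sequence and 0.37 for the next, beside 0.28 over all genes and -0.01 for the fifth with the least. Pdgfd (207113 intron bases), Pdgfc (172536), Kitl (78876) and Kit (72896) belong to the first of these groups and Pdgfrb (34434) to the second. Kitl (0.61, -0.01 to 1.17), Pdgfra (0.59, -0.87 to 1.73), Pdgfa (-0.08, -0.31 to 0.14) and Kit (-1.16, -3.45 to 0.39, on 3 UMIs) did not differ detectably. TMM and median-of-ratios scaling shifted every ratio by -0.35 and -0.33, which ended the call of Pdgfb (0.58, -0.27 to 1.32 with TMM). Pdgfb, on 15 UMIs, was past the fold in 6 of 13 alternative settings.

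**Figure D4:**
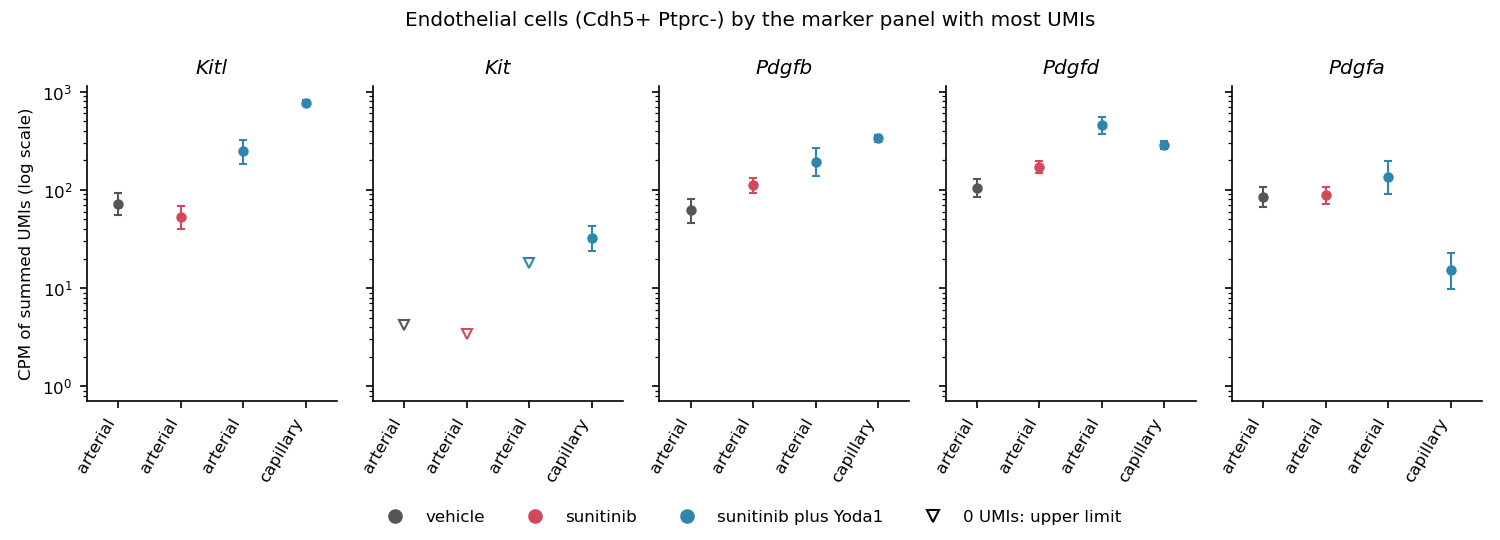
CPM of summed UMIs (log scale) of 5 genes in stricter-gate endothelial cells, grouped by the marker panel with the most UMIs and coloured by library, with exact Poisson intervals; open triangles give the upper end of the interval where no UMI was found. Capillary cells of the combined library lie highest for Kitl (773 CPM) and lowest for Pdgfa (15.4 CPM).

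Endothelial cells differed more, and so did the whole transcriptome. In the stricter gate 2 of the 6 genes measured were past 1.5-fold lower and 4 higher, against a background of 17.5% lower, 30.7% higher and 48.2% in either direction among 10030 genes. Kitl stood at 48.6 CPM in sunitinib and 622 CPM in the combined library (log2 ratio 3.68, 3.33 to 4.05). Kit, at 0 UMIs in sunitinib and 59 in the combined library, was 13.6-fold higher with the 0 set to 3 counts, and its log2 interval began at 3.42. Pdgfb gave 1.35 (1.09 to 1.62) and Pdgfd 0.74 (0.52 to 0.96), while Pdgfa (-1.58, -2.04 to -1.13) and Pdgfrb (-1.35, -2.30 to -0.45) were lower. Here too the median log2 ratio differed with intron length, at 1.25 for the fifth of genes with the most intron sequence, which holds Kitl, Kit and Pdgfd, and 0.17 for that of Pdgfb and Pdgfa, so the ratio of Pdgfd lay below the median of its group. In the wider gate, many of whose cells carried leukocyte markers, 2 of 6 genes were past the fold lower and 2 higher (Kitl and Kit), against 21.6%, 36.0% and 57.5% in either direction, and Pdgfb (0.16) and Pdgfd (-0.48) were not.

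The kind of endothelium differed between these libraries. Capillary markers outnumbered the other panels in 257 of 309 cells of the combined library, against 6 of 103 in vehicle and 11 of 141 in sunitinib, and arterial markers did so in 23, 82 and 98 cells. Its capillary cells held 1201 of the 1278 Kitl UMIs (773 CPM, 86.4% of cells), 520 of the 565 Pdgfb UMIs (335 CPM) and 50 of the 59 Kit UMIs, and had 15.4 CPM of Pdgfa. The 23 arterial cells, too few for a ratio, held 51 Kitl UMIs (247 CPM, 184 to 325), 40 of Pdgfb (194 CPM, 139 to 264), 94 of Pdgfd (456 CPM, 368 to 558), 28 of Pdgfa (136 CPM, 90.2 to 196) and 0 of Kit. Arterial cells of the sunitinib library had 52.9, 111, 171 and 88.5 CPM of the first 4 and 0 UMIs of Kit. At equal depth, Pdgfb and Kitl were found together in the combined library, with a Kitl UMI in 75.0% of Pdgfb-positive and 58.0% of Pdgfb-negative cells thinned to 2000 UMIs. The same shares were 28.6% and 15.6% in vehicle (7 Pdgfb-positive cells), and in the opposite order, 10.0% and 13.3%, in sunitinib (20 Pdgfb-positive cells). They were not split by kind of endothelium. The lymphatic-marker cells (17) held no Pdgfb UMI, 16 of Kitl and 4 of Kit.

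Genes that act around these receptors mostly stood within 1.5-fold of vehicle in the sunitinib library. Of 23 adaptors, kinases and transcription factors that act next to the receptors, all were measured in smooth muscle and none was past 1.5-fold (median log2 ratio 0.02), beside 3.45% of all genes lower and 5.66% higher. The lowest were Stat3 (-0.46) and the kinase subunit gene Pik3ca (-0.14), and the highest Stat5a (0.50) and the kinase gene Lyn (0.64, -0.26 to 1.56). Of 12 negative regulators measured of 15 listed, 1 was lower, the cytokine signal suppressor Socs1 (28.9 against 15.3 CPM; -0.92, -1.04 to -0.80), and none higher (median -0.06), with Socs3 at -0.23, Socs6 at 0.15 and the phosphatase gene Acp1 at 0.31. Of 11 of 12 proteases and co-receptors that process or hold PDGF and KIT ligands, 1 was lower, Plau (-0.93), which encodes urokinase, an activator of PDGF-D, and 1 higher, Mmp9 (2.14, 0.82 to 3.71, at 0.0995 and 0.437 CPM). Of the related class of receptors and ligands 2 of 5 were measured, Csf1 (0.31) and Flt3l (0.21), and neither was past the fold.

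In endothelial cells none of 20 signalling genes and none of 9 negative regulators was past 1.5-fold (medians -0.02 and 0.11), beside 2.85% of all genes lower and 5.88% higher. Of 7 proteases and co-receptors, Lrp1 (-0.69) and Plat (-0.61), the gene of tissue plasminogen activator that activates PDGF-C, were lower and Adam33 (2.08, 0.30 to 4.48) higher, but in the stricter gate none of 6 was past the fold. With both compounds, 11 of 23 signalling genes in smooth muscle and 17 of 22 in the stricter endothelial gate stood past the fold higher, beside 22.0% and 30.7% of all genes, with Lyn the highest in each (3.39 and 5.75). Socs3 was the lowest negative regulator in both (-2.22 and -1.88), and Cblb, an E3 ubiquitin ligase, the highest (2.18 and 3.30). For both compounds against sunitinib, the fifth of genes with the most intron sequence had a median log2 ratio of 0.97 in smooth muscle. In the stricter endothelial gate it was 1.25. The listed genes were not compared with genes of like intron length. Cell Ranger version and cell make-up cannot be told apart from treatment in these counts. These lists, like the 8 genes, were chosen with results of these data known.

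Levels over the 14 sums of gates and libraries with at least 50 cells, taken with the wider endothelial gate, were compared with 12345 other genes. This is a description only, since sums from 1 library share its depth and processing. The sums include, for each library, the cells of no gate without a Ptprc UMI. Of these, 94.6% in vehicle and 94.2% in sunitinib held 3 or more smooth muscle marker UMIs. Nearest to Pdgfra were 4930438E09Rik, Nkain4 and Krt15 (Pearson r 0.99 for each), and to Pdgfrb Adamtsl5, Ptprd and Bmpr1a (0.97, 0.97 and 0.96). Pdgfa lay nearest to Endod1, Fblim1 and Ncam1 (0.99, 0.99 and 0.98), and Pdgfb to the scavenger receptor gene Scarf1, Afap1l1 and Fnbp1l (0.95, 0.93 and 0.93). For Pdgfc they were Enpep, Arhgef10l and Map3k20 (0.97, 0.95 and 0.95), and for Pdgfd Tmtc1, Nfib and Phactr1 (0.98, 0.98 and 0.97). Kitl was nearest to Nectin2, Prex2 and Sncaip (0.95, 0.94 and 0.92). Kit had no close match, with Lrp8, Il12b and Cd300c at 0.86 each.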

How the data were processed

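For each library the authors deposited a table of unnormalized UMI counts, genes by cell barcodes, made with Cell Ranger 6.0.0 (vehicle, sunitinib) and 7.1.0 (both compounds), per the file headers. Build mm10, Cell Ranger and Seurat are named per the submitters' processing notes. The annotation, and whether intronic reads and strand were used, are not given in the sources used here.

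From these counts, UMIs were summed over the cells of a gate and given as CPM with exact Poisson intervals, shares of cells with Clopper-Pearson intervals, and ratios with the exact conditional binomial interval (Python 3.11.15, numpy 2.4.6, scipy 1.17.1, pandas 2.3.3, matplotlib 3.10.9). Against a sum of 0 UMIs, ratios used a floor of 3 counts and are bounds of the value, not limits of its interval. Ratios needed at least 20 UMIs in both sums together and at least 50 cells in each. Smooth muscle cells had at most 1 UMI of Pecam1 and Cdh5 and at most 2 of Dcn; endothelial cells at most 3 of Myh11 and at most 2 of Dcn; fibroblasts at most 3 of Myh11 and at most 1 of Pecam1 and Cdh5. Cells of no gate with a Ptprc UMI were called B (Cd79a), T (Cd3d, Cd3e, Cd3g), phagocytes (Lyz2, Csf1r and C1qa together at least 3) or other leukocytes.

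TMM factors came from edgeR 4.0.16 (R 4.3.3), for an alternative only. No test was made. The 8 genes and all lists were chosen with earlier results of these data known. Named beside them were the 2 highest and 2 lowest genes of each list and the 3 most alike genes (Pearson r of log2 of CPM plus 10). The genes that set carriers of a transcript apart, the stricter endothelial gate and the Hox classes were chosen after values were seen. Counts were also simulated with counting error only, so they hold no spread between animals or libraries. Of genes made 2-fold different, 98.5% were called in smooth muscle for sunitinib against vehicle (13800 genes). For both compounds against sunitinib 57% were called there (13021 genes). In endothelium of the wider gate the shares were 90% and 91.5% (8402 and 11787 genes). Of unchanged genes, 0.64%, 1.87%, 2.18% and 2.13% were called, in the same order.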

Additional observations from a re-analysis of the deposited data

Results flagged for a closer look

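The sunitinib against vehicle log2 ratio of Pdgfb lay above 0 in the endothelial gate (0.73, 0.31 to 1.17) and below 0 in the smooth muscle gate (-0.22, -0.40 to -0.05). The 2 cell types thus differed in direction in the same pair of libraries, and the difference between them was not tested. After thinning to 2000 UMIs per cell the values were -0.024 and 0.19.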

How the results depend on the processing

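Member results were recomputed under alternative gates, cell filters, depths and scalings. Of 368 alternative values for 27 gene ratios, 305 stayed inside the counting interval of the value given, 61 moved outside it and 2, both of ratios past 1.5-fold, changed sign; sign changes of values that were not past the fold are counted with the others. Of the 14 gene ratios past 1.5-fold, 7 were past it under every alternative run. These 2 were of Pdgfb thinned to 2000 UMIs per cell, where few UMIs remain: -0.024 in endothelium for sunitinib against vehicle (0.73 as given), and -0.26 (-5.58 to 2.27) in smooth muscle for both compounds against sunitinib (0.93 as given). The count of genes past 1.5-fold in smooth muscle for sunitinib against vehicle was 2, and 4 with TMM factors, 4 with median-of-ratios factors and 4 in cells with no posterior Hox UMI (added after the data were seen). In endothelium that count was 4, and 2 in cells with no UMI of the other gates' genes and 0 after thinning. For both compounds against sunitinib the counts stayed within 1.5 times of 4 in every alternative run. The genes counted were not always the same. With the median of each gene's intron-length group taken off, smooth muscle Pdgfc fell to 0.39 and Kit to -2.13 (1.36 and -1.16 as given). Pdgfd in the wider endothelial gate then fell to -1.73 (-0.48 as given). In smooth muscle Pdgfd and Pdgfrb were past the fold in all 13 alternatives, and Pdgfc in 11. The filter at 5% mitochondrial UMIs was not run in smooth muscle, where it left 8 cells. Causes were not tested. No paired analysis was possible because each group had 1 library.

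Endothelial ratios for sunitinib against vehicle ran from -0.024 to 0.86 for Pdgfb, 0.53 to 0.87 for Pdgfd, -1.65 to -0.55 for Pdgfrb and -1.13 to -0.44 for Kitl. Kit and Kitl in smooth muscle ranged from -0.67 to -0.38 and from -0.88 to -0.48. The median of all genes lay at 0.28 in smooth muscle for both compounds against sunitinib, and TMM factors shifted those ratios by -0.35. Endothelial alternatives used the wider gate except where the stricter one or its arterial cells were the alternative. The smooth muscle values of the combined library rest on 68 cells, with 3 UMIs of Kit and 6 of Pdgfra.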

Other observations

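Outside the vessel wall gates of the combined library, Kit was most frequent in leukocytes that were neither B cells, T cells nor phagocytes. These 154 cells held 40 Kit UMIs in 17 cells (11.0%, 6.56 to 17.1; 40.3 CPM), against 2 of 787 B cells and 3 of 589 T cells. Markers of group 2 innate lymphoid cells (Gata3, Il1rl1, Il7r, Rora, Il2ra) were found, 2 or more per cell, in 8 of the 17 Kit-positive and 23 of the 137 Kit-negative cells. The same was true of 194 of 586 Kit-negative T cells, so these markers do not name the cell type. Mast cell markers, 2 or more per cell, were found in 1 of the 17. The 43 cells of any gate with at least 3 mast cell marker UMIs held 6 Kit UMIs in 2 cells. Such UMIs can come from 1 listed gene, so these 43 were not shown to be mast cells. Of Kit-negative cells, 0 of 137 other leukocytes, 0 of 586 T cells and 0 of 785 B cells carried 2 or more different mast cell markers. Of the 152 Kit UMIs of that library, 72 lay in the wider endothelial gate.

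Cells of the combined library with at least 3 pericyte marker UMIs (Kcnj8, Abcc9, Vtn, Higd1b or Cspg4) that fell in none of the vessel wall gates numbered 35. They had 303 CPM of Pdgfrb (254 to 359; 85.7% of cells), 204 CPM of Pdgfd (165 to 251), 65.1 CPM of Kitl and 15.7 CPM of Pdgfb. Phagocytes of that library had 14.2 CPM each of Pdgfc and Kitl (8.88 to 21.4) beside 18.7 CPM of Pdgfb, and 0.644 CPM of Pdgfra.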
